A study of Homo sapiens with 36 samples.

Results

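The genes of the Arp2/3 complex were followed between the pseudopods and the cell bodies of 6 human cancer cell lines. Members were taken by name as the subunit genes of the complex, with every probe set annotated to each, and 8 of the 9 named genes had a probe set of their own (ACTR3, ARPC1A, ARPC1B, ARPC2, ARPC3, ARPC4, ARPC5 and ARPC5L). ACTR2, which encodes the actin-related protein Arp2, was not analysed here. These 8 genes are among 19775 genes with a probe set and were all among the 15399 that were bright enough to be tested. They carry 20 probe sets of their own, out of 54593 on the table used here.

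The Arp2/3 complex binds the side of an existing actin filament and starts a daughter filament from it, which gives a branched network. ACTR2 and ACTR3 encode the actin-related subunits from which the daughter filament grows, ARPC2 and ARPC4 form the core that holds them and grips the mother filament, and ARPC1, ARPC3 and ARPC5 are further subunits around that core. ARPC1A and ARPC1B are alternative forms of one another, as are ARPC5 and ARPC5L, and the complex stays idle until activators of the WASP and WAVE families bind it. Branched networks push the membrane forward in lamellipodia and pseudopods.

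Levels were read on 36 Affymetrix arrays (type HG-U133 Plus 2.0), 3 for each line and fraction. The lines were U87 and U251 (glioblastoma), HT1080 (fibrosarcoma), DU145 (prostate carcinoma), MDA231 (breast carcinoma) and MDA435, a line of disputed origin with melanocytic gene expression. The labels name no genetic change and no added agent. U87, U251 and HT1080 grew in DMEM and the others in RPMI-1640, with fetal bovine serum in both media. After 24 hours on a porous filter, the pseudopods (PS) that had passed to its underside and the cell bodies (CB) left on top were scraped off apart, and 100.0 ng of total RNA from each was amplified in 2 cycles. The labels do not say whether the 3 replicates of a group were separate cultures, so p-values measure only the spread between these samples.

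Several arrays stood apart within their group. In MDA231 the epithelial cadherin gene CDH1 read 1299 on PS replicate 3 and 1778 on CB replicate 2 while its remaining arrays did not exceed 13.7. In MDA435 it read above 500 (between 922 and 2463) on PS replicates 1 and 2 and CB replicates 2 and 3, with 33.2 on PS replicate 3 and 32.8 on CB replicate 1, and the epithelial antigen gene EPCAM was high on the same arrays of both lines. Of the 8 epithelial markers listed, all 8 were measured, 2 were called higher and 1 lower in pseudopods, and their summed intensity ran from 152 to 17441 over PS arrays and from 136 to 17125 over CB arrays, with CDH1 averaging 1.55 in U87, 3.78 in U251 and 1.2 in HT1080. CDH1 and EPCAM were also lower on DU145 PS replicate 1 (319 and 567) than on the other arrays of that line (at least 857 and 1229). Whether each array labelled MDA231 or MDA435 holds the named line alone was not tested, and values of these lines are those of the arrays so labelled. The filament gene VIM (3131 to 5171) was high in all 6 lines and so told none apart, and the keratin gene KRT18 was also present in HT1080 (1586) and U251 (2113). MDA435 had the melanocyte lineage genes SOX10 (1468), MITF (1932) and TYR (410), but PMEL (22.8) and MLANA (14.9) were dim there. U251 had the neural gene SOX2 (1823), whereas in U87 both SOX2 (11.2) and the astrocyte filament gene GFAP (6.53) were low. Among mesenchymal markers 0 of 5 were called higher and 4 lower, CDH2 by 1.17, FN1 by 1.13, COL1A2 by 0.76 and COL6A3 by 0.37, with summed intensities from 3207 to 15347 on PS and 2778 to 23718 on CB arrays. Of the 5 glial and neural markers 0 were called higher and 2 lower, and of the 5 melanocytic 0 and 2. The part of these markers in the members' changes was not tested. Of 4 measured blood cell markers 0 were called higher and 1 lower, and none exceeded 100.3 on any array.

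As a check of the fractions, the ribosomal RNA precursor RNA45SN5, a nuclear transcript, fell by 3.25 ± 0.23 on the log2 scale (SE; limma, adjusted p = 3.86e-12), and SERPINH1, a chaperone made on the endoplasmic reticulum, fell by 1.83 ± 0.12 (adjusted p = 1.22e-12). Array medians were 23.0 ± 2.49 intensity units in pseudopods and 25.8 ± 2.29 in cell bodies (SD, n = 18 each).

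Most measured Arp2/3 subunit genes were higher in pseudopods, by small amounts. On the scale of log2(intensity + 16), averaged over the 6 lines, ARPC3, ARPC1A, ARPC1B, ARPC5L and ARPC5 rose by 0.51, 0.49, 0.38, 0.37 and 0.26, and ARPC2 rose by 0.13 at the edge of the test. ACTR3 (0.10) and ARPC4 (0.07), each read by its brightest probe set as all members were, did not pass. A gene was called where limma's test, with 12 group means and the p-value adjusted over all 15399 genes (Benjamini-Hochberg), gave an adjusted p under 0.05. By that rule 6 of the 8 members were called higher and 0 lower (unadjusted p under 0.05 in the lower direction: 0 members, since all 8 estimates were positive), while 29.5% of all tested genes were called higher and 20.8% lower (4550 and 3204 genes, or 6325 and 2525 with equal array medians). The members' median change was 0.315 against 0.05 over all genes tested. The sign of ACTR3 alone turned with quantile normalization, to -0.016. The samples are bulk RNA of cell parts, used in equal amounts, and the arrays had been scaled to a common mean. A higher value therefore means a larger share of the RNA of that fraction. More RNA of a gene and less of other RNA in the fraction cannot be told apart. Nor can a different mix of cells be told from a change within cells.

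Bright genes were more often higher in pseudopods than dim ones, and the members are bright. Among the 1329 genes with a mean intensity from 1000 to 2000, which include ARPC1A, ARPC1B and ARPC5L, the median change was 0.20 and 743 were higher in 6 of 6 lines. In the next class, up to 3000, where ARPC3 and ARPC5 lie, the median was 0.20 and 261 of 433 genes were higher in every line. Above that, where ACTR3 and ARPC2 lie, the median was 0.18, which is more than either of them changed. ARPC4 lies in the class from 200 to 1000, whose median was 0.13. Ranked among all genes tested, ARPC3 stood at the 96.1 percentile of the change, ARPC1A at 95.3, ARPC1B at 88.7, ARPC5L at 88.5 and ARPC5 at 78.1, and ARPC2, ACTR3 and ARPC4 at 62.2, 58.0 and 53.7. The part of intensity in the members' changes was not tested.

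**Figure D1:**
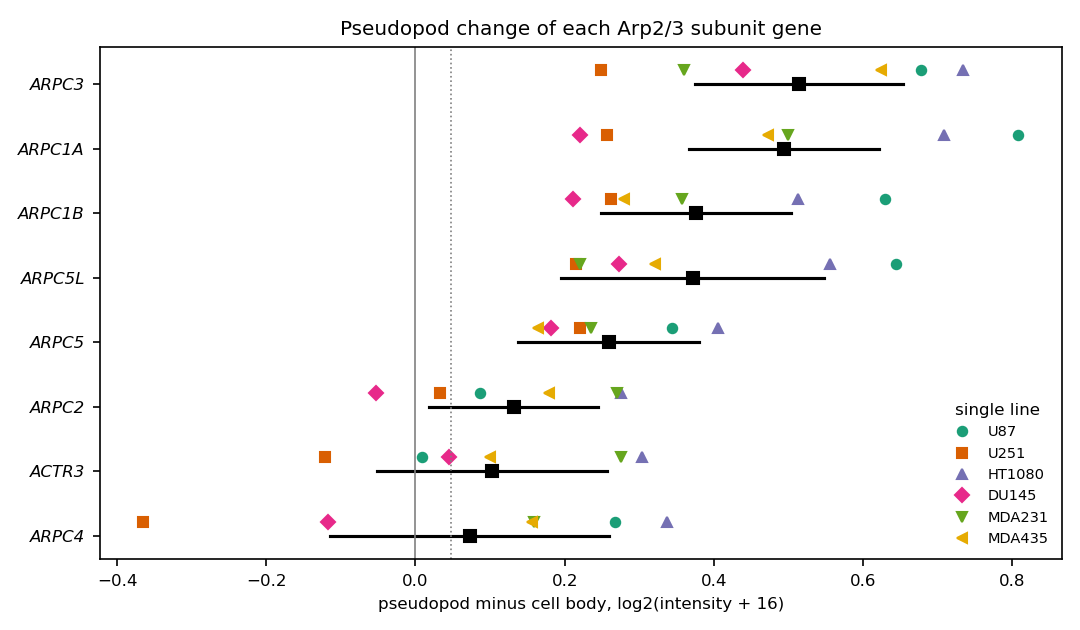
Averaged change of each measured Arp2/3 subunit gene (black square; bar, 95% confidence interval) and its change in each of the 6 lines (coloured marks), as pseudopod minus cell body on log2(intensity + 16); the dotted line is the median of all genes tested, 0.05. ARPC3, ARPC1A, ARPC1B, ARPC5L and ARPC5 lie above 0 in every line, while the marks of ARPC4 run from -0.36 in U251 to 0.34 in HT1080 and the averaged ACTR3 value (0.10) turns to -0.016 with quantile normalization.

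The upstream sequences of the members are shown as a reference, taken from RefSeq on GRCh38.p14. Whether these sequences bear on the difference between the fractions was not tested. Windows were found for 8 of the 9 members (11 windows in all, and none for ARPC1B). Printed here are the 100.0 bases just before the annotated start of the 4 called members with the larger changes that have a window, and of ACTR3 (the first of its 3 starts), which was not called. Each is written 5′ to 3′ on the gene's own strand, with letters that match a searched motif in capitals.
ARPC1A, chr7:99325798-99325897, plus strand: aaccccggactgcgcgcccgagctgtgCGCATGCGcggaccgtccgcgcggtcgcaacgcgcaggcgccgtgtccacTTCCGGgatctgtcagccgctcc
ARPC3, chr12:110450338-110450437, minus strand: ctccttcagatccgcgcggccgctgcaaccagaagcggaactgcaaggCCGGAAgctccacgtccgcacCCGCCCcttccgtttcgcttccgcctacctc
ARPC5L, chr9:124862030-124862129, plus strand: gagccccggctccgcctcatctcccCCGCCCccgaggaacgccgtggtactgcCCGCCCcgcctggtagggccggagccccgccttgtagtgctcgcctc
ARPC5, chr1:183635784-183635883, minus strand: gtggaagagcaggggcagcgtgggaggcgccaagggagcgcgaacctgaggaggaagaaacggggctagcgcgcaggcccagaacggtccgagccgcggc
ACTR3, chr2:113889834-113889933, plus strand: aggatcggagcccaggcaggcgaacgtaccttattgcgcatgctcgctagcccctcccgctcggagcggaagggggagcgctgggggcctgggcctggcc
The motifs were searched on both strands of the 250 bases before the start, in the members and in all 35116 windows of that length. The GC box GGGCGG stood in 9 of the 11 member windows and in 42.6% of all windows, CCAAT in 4 and 32%, the ETS core CCGGAA in 4 and 14.5%, and the NRF1 core CGCATGCG in 1 (ARPC1A) and 1.73%. TATAAA was in 0 member windows and 10.7% of all, and the SRF CArG box in 0 and 1.16%. In the stretches printed, ARPC1A and ARPC3 carry the ETS core, ARPC3 and ARPC5L the GC box, and ARPC5 and this ACTR3 start none of the motifs. The same stretches of the other ACTR3 starts, not printed, each hold the GC box. A match describes the letters only.

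ARPC1A and ARPC1B, the alternative forms of the subunit that activators contact, were higher in pseudopods in all 6 lines. ARPC1A ran from 956 to 2086 with a median of 1575 over the 18 cell body arrays and from 1278 to 3503 with a median of 2070.2 over the 18 pseudopod arrays, in intensity units. It read 1458, 1693 and 1569 on the U87 cell body arrays and 3205, 2976 and 2207 on the U87 pseudopod arrays. In HT1080 the cell body arrays gave 2086, 1726 and 1948 and the pseudopod arrays 3503, 2681 and 3294. These lines had the widest gaps, with every pseudopod array well above every cell body array, U87 PS replicate 3 being the lowest of its group. ARPC1A in MDA231 went from 956, 1052 and 961 to 1437, 1509 and 1278, and in DU145 from 1581, 1912 and 1833 to 2076, 2064 and 2049.8, again without overlap. U251 gave 1524, 1436 and 1773 and 1905, 1747 and 2001, where the highest cell body array passed the lowest pseudopod array. MDA435 gave 2013, 1432 and 1279 and 1886, 2253 and 2340.1, and overlapped through CB replicate 1.

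The averaged change of ARPC1A was 0.49 ± 0.06 (SE; 1.41-fold higher; limma, adjusted p = 1.11e-07). Single-line changes were 0.81 ± 0.15 in U87 (adjusted p = 0.000235), 0.71 ± 0.15 in HT1080 (0.000787), 0.50 ± 0.15 in MDA231 (0.0469) and 0.47 ± 0.15 in MDA435 (0.0395), all called. In U251 (0.26) and DU145 (0.22) it did not pass (adjusted p = 0.299 and 0.485). Without the 6 CDH1-rich arrays of MDA231 and MDA435 the averaged change was 0.47 (adjusted p = 2.41e-06), that in MDA231 was 0.61 (adjusted p = 0.0231) and that in MDA435, then 1 array against 1 with the spread taken from the other groups, was 0.22 (adjusted p = 0.788). The MDA231 call ended in 24 of 36 fits without 1 array, 4 of which leave out an array of that line: PS replicate 1 (adjusted p = 0.117) or 2 (0.181), or CB replicate 1 (0.136) or 3 (0.127). The MDA435 call ended without PS replicate 2 (adjusted p = 0.141) or 3 (0.128), or CB replicate 2 (0.142) or 3 (0.219).

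ARPC1B ran from 599.5 to 2242 with a median of 1155 in cell bodies and from 842 to 2559 with a median of 1704 in pseudopods. In U87 it went from 1153, 1230.3 and 1321 to 2077, 2011 and 1684, and in HT1080 from 1092, 1114 and 1157 to 1795, 1475 and 1562. Both lines had their fractions apart, with a wide gap. DU145 (1861, 2011 and 2134 against 2364, 2461 and 2138) and MDA231 (832, 599.5 and 739 against 981, 953 and 842) were also without overlap, but by a narrow gap. U251 (861, 771 and 965 against 918, 1152 and 1053) and MDA435 (2242, 1705 and 1523 against 1723, 2559 and 2374) overlapped. The averaged change was 0.38 ± 0.06 (SE; 1.30-fold; limma, adjusted p = 9.5e-06), with calls in U87 (0.63 ± 0.15, adjusted p = 0.00281) and HT1080 (0.51 ± 0.15, 0.013). The HT1080 call ended without PS replicate 1 (0.43, adjusted p = 0.074).

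The pair was compared within each array, where a scaling factor cancels. ARPC1A changed by 0.12 ± 0.05 more than ARPC1B (SE; 95% interval 0.02 to 0.22; two-sided permutation test with 100000 resamples of the fraction labels within lines, p = 0.0175, adjusted p = 0.035 over the 2 paralog pairs). The difference was positive in 5 of 6 lines, from 0.01 in DU145 to 0.20 in HT1080, and -0.004 in U251. It did not pass with quantile normalization (0.090, adjusted p = 0.0696) nor without U87 (0.11, 0.115), HT1080 (0.10, 0.125) or MDA435 (0.10, 0.125). Both genes have 1 probe set each, and the comparison shows unequal change and not that either stayed the same.

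**Figure D2:**
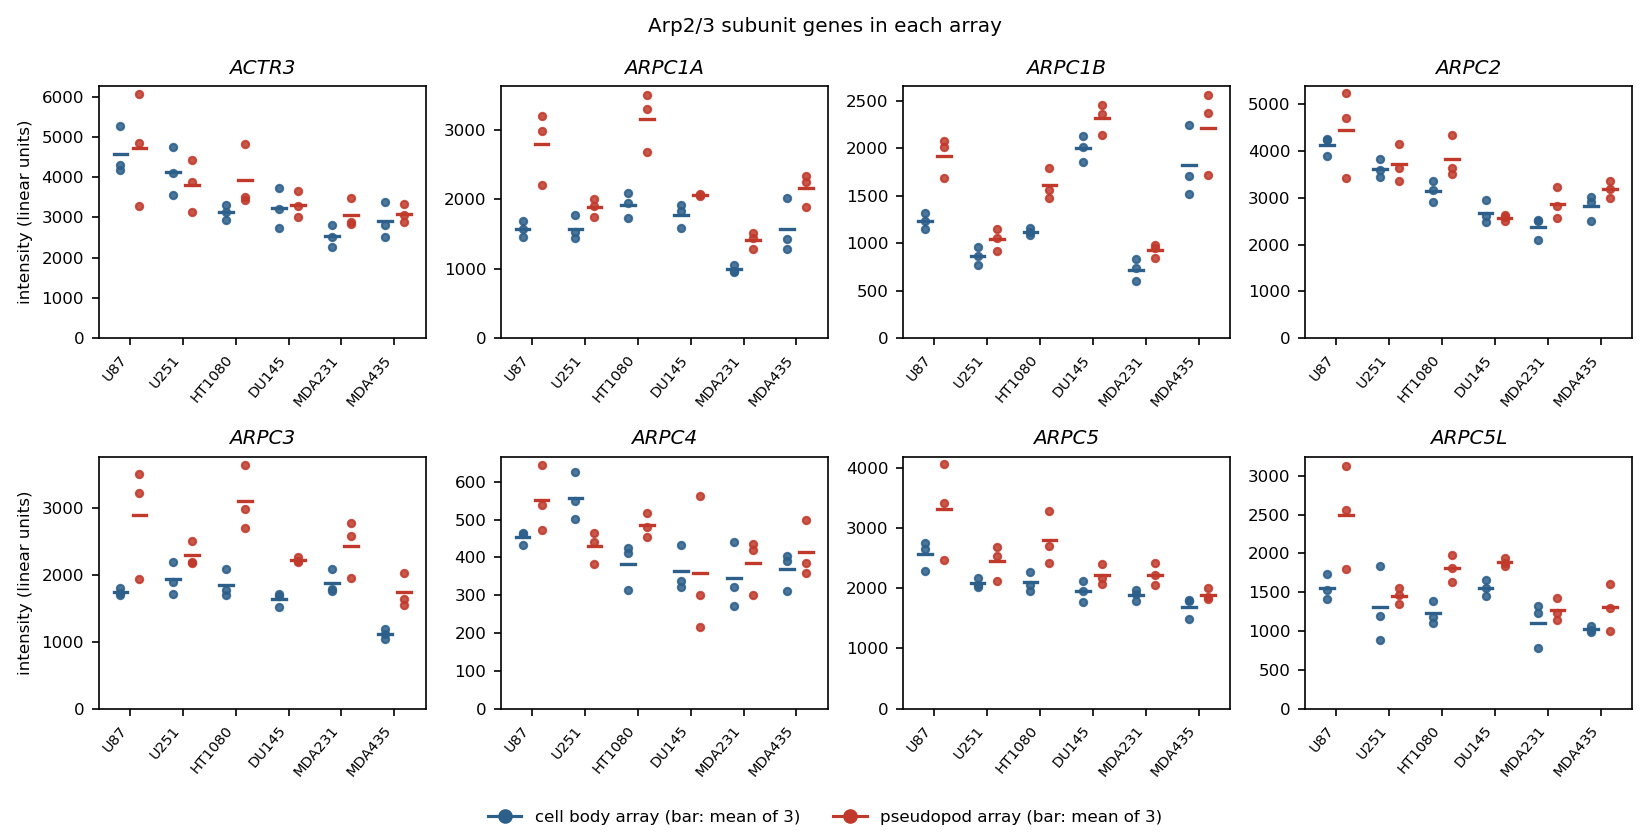
Intensity (linear units) of the 8 measured Arp2/3 subunit genes on each of the 36 arrays, by line, with cell body arrays in blue, pseudopod arrays in red and a bar for the mean of each 3; every axis starts at 0 and has its own scale. In HT1080 all 3 pseudopod arrays lie above all 3 cell body arrays for 8 of 8 members, and ARPC4 is the only member with all 3 pseudopod arrays below all 3 cell body arrays in a line (U251).

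ARPC3, a small peripheral subunit placed next to Arp3, had the largest averaged change. Its intensity ran from 1042 to 2182 with a median of 1716 over cell body arrays and from 1548 to 3632 with a median of 2232 over pseudopod arrays. In HT1080 it read 1775, 1700.1 and 2079.5 in cell bodies and 3632, 2701 and 2972 in pseudopods, and in U87 1703, 1724 and 1800.4 and 3221, 3502 and 1936. The fractions were apart in both, and the U87 gap was narrow only at PS replicate 3. MDA435 went from 1042, 1117 and 1181 to 1548, 2023 and 1632 and DU145 from 1515, 1683 and 1707 to 2192, 2267 and 2197. All 3 pseudopod arrays exceeded all 3 cell body arrays in both. MDA231 (1785, 1750.4 and 2089 against 2569, 2769 and 1951) and U251 (1708, 1893 and 2182 against 2506, 2190.1 and 2166) overlapped, through PS replicate 3 in each.

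ARPC3 rose by 0.51 ± 0.07 on average (SE; 1.43-fold; limma, adjusted p = 3.15e-07; 6 of 6 lines higher). It was called in HT1080 (0.73 ± 0.17, adjusted p = 0.0015), U87 (0.68 ± 0.17, 0.00339) and MDA435 (0.62 ± 0.17, 0.0123), and not in DU145 (0.44, 0.15), MDA231 (0.36, 0.211) or U251 (0.25, 0.378). Without the CDH1-rich arrays the averaged change was 0.53 (adjusted p = 5.26e-06) and the MDA435 change, 1 array against 1, was 0.64 (adjusted p = 0.287). The MDA435 call also ended without PS replicate 2 (0.51, adjusted p = 0.102) or CB replicate 1 (0.58, 0.0533), and the U87 call without PS replicate 2 (0.52, 0.0513).

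ARPC5 and ARPC5L, the alternative forms of the subunit that tethers ARPC1 to the complex, were also higher in all 6 lines. ARPC5 ran from 1493 to 2751 with a median of 1997 in cell bodies and from 1822 to 4062 with a median of 2409 in pseudopods. It went from 2054, 1963 and 2278 to 3285, 2419 and 2699 in HT1080, from 1909.8, 1788 and 1967 to 2222, 2418 and 2047 in MDA231 and from 1782, 1493 and 1811 to 1860.2, 2008 and 1822 in MDA435, without overlap in any of the 3. U87 (2751, 2651 and 2295 against 4062, 3416 and 2475), U251 (2026, 2179.5 and 2054 against 2681, 2117 and 2539) and DU145 (1957, 2125 and 1775 against 2177, 2400.2 and 2069) overlapped. The averaged change was 0.26 ± 0.06 (SE; limma, adjusted p = 0.000539), and HT1080 alone was called (0.41 ± 0.14, adjusted p = 0.0394). That call ended without HT1080 PS replicate 1 (0.29, adjusted p = 0.224) or 3 (0.43, 0.0704), or CB replicate 1 (0.39, 0.0953) or 2 (0.36, 0.14), with equal array medians (0.47, 0.0559) or after quantile normalization (0.23, 0.089).

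ARPC5L ran from 775 to 1834 with a median of 1272 in cell bodies and from 1005 to 3129.5 with a median of 1623 in pseudopods. U87 had the widest change, from 1406, 1526 and 1739 to 3129.5, 2562 and 1795, followed by HT1080, from 1392, 1109 and 1180.4 to 1974, 1637 and 1811. In both, and in DU145 (1455, 1658 and 1558 against 1832, 1944 and 1870.4), the fractions did not overlap. MDA231 (775, 1317 and 1227 against 1139.8, 1425 and 1228) and MDA435 (1070.1, 986 and 1015 against 1005, 1608 and 1300.3) overlapped. In U251 the cell body arrays spread from 890 to 1834 and enclosed the pseudopod arrays (1464, 1352 and 1551). The averaged change was 0.37 ± 0.09 (SE; 1.29-fold; limma, adjusted p = 0.000641), and in this, its brightest probe set, U87 alone was called (0.64 ± 0.21, adjusted p = 0.0254). The U87 call ended with quantile normalization (0.48, adjusted p = 0.073), and without PS replicate 1 (0.46, adjusted p = 0.179) or 2 (0.61, 0.0945) and without CB replicate 1 (0.57, 0.103) or 2 (0.63, 0.0599).

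Within arrays, ARPC5 changed by 0.11 ± 0.09 less than ARPC5L (SE), which did not pass (95% interval of the difference -0.29 to 0.06; two-sided permutation test, adjusted p = 0.17). The difference was negative in 4 of 6 lines and reached -0.30 in U87. With the mean of all probe sets of each gene it was -0.26 (adjusted p = 0.00018).

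ARPC2 and ARPC4, the core of the complex, changed little in their brightest probe sets. Their other probe sets rose more, that of ARPC4 by 0.68 (limma, adjusted p = 0.00094) and those of ARPC2 by 0.20 and 0.21. The values below are those of the brightest. ARPC2 ran from 2104 to 4257 with a median of 2979.6 in cell bodies and from 2499 to 5234 with a median of 3358 in pseudopods. Its fractions were apart in HT1080 (2919, 3172 and 3364 against 4334, 3511 and 3634) and MDA231 (2104, 2498 and 2536 against 2564, 3228 and 2835) and overlapped in the other 4 lines, including U87, where PS replicate 3 (5234, 4699.7 and 3415 in order of replicate) lay below every cell body array. The averaged change was 0.13 ± 0.06 (SE; 1.10-fold; limma, adjusted p = 0.049; 5 of 6 lines higher), and no line was called. This call ended in 11 of 20 other settings and in 23 of 36 fits without 1 array, with adjusted p from 0.00709 to 0.0907 in the latter. With the 6 lines as the units its adjusted p was 0.125, and with quantile normalization its change was 0.017 (adjusted p = 0.708).

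Estimates for ARPC4 had opposite signs in lines whose arrays did not overlap, though no single-line change passed. Nor did the difference of its change between the 6 lines (moderated F test, unadjusted p = 0.258). How many of all genes had every pseudopod array below every cell body array in a line was not counted. ACTR3 (-0.12 in U251) and ARPC2 (-0.05 in DU145) also had 1 negative line each. ARPC4 ran from 272 to 625 with a median of 418 in cell bodies and from 215 to 646 with a median of 448 in pseudopods. In U251 the pseudopod arrays (442, 383 and 465) lay below the cell body arrays (502, 549 and 625). In HT1080 (314, 424 and 413 in cell bodies, 518, 482 and 455 in pseudopods) and U87 (465, 432 and 463 and 646, 539.9 and 473) they lay above. DU145 had the widest spread, 562, 215 and 299.9 in pseudopods against 339, 322 and 433 in cell bodies. The averaged change was 0.07 ± 0.09 (SE; limma, adjusted p = 0.541; 95% interval -0.12 to 0.26), 4 of 6 lines were higher and no line was called.

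ACTR3 encodes Arp3, which with Arp2 forms the base of the new branch. It ran from 2273 to 5258 with a median of 3261 in cell bodies and from 2836 to 6073 with a median of 3379 in pseudopods. The fractions were apart in HT1080 (2944, 3142 and 3318 against 4827, 3427 and 3496) and MDA231 (2273, 2502 and 2804 against 2836, 3477 and 2879) and overlapped elsewhere, with U87 pseudopods at 6073, 4848 and 3272 around its cell bodies at 5258, 4185 and 4299. The averaged change was 0.10 ± 0.08 (SE; limma, adjusted p = 0.275; 95% interval -0.05 to 0.26), with 5 of 6 lines higher, and -0.016 with quantile normalization.

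The number of members called differed between lines, and so did the number of all genes called. All single-line tests use the pooled spread, although the lines differed in spread. U87 and HT1080 had 4 members called higher each (ARPC1A, ARPC1B and ARPC3 in both, with ARPC5L in U87 and ARPC5 in HT1080), where 11.7% and 12.8% of all genes were called higher. In MDA435 ARPC1A and ARPC3 were called, against 2.96% of all genes, and in MDA231 ARPC1A, against 1.18%. U251 and DU145 had 0 members called by limma in their brightest probe sets (a dimmer one of ARPC5L was called in U251), against 5.36% and 0.825% of all genes, and at an unadjusted p under 0.05 the counts were 0 in U251 and 1 in DU145 (ARPC3, 0.0143). In limma's test 0 members were called lower in any line, also at an unadjusted p under 0.05. Of all genes, 11.8% were called lower in U87 and 12% in HT1080, at an adjusted p under 0.05. The share called lower in the remaining lines was not counted. In U87 without PS replicate 3, whose members averaged -0.15 around the line mean against 0.48 and 0.32 on the other pseudopod arrays, 5 members were called, and ARPC1A and ARPC3 changed by 0.97 and 0.94.

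Counted by arrays, all 3 pseudopod values exceeded all 3 cell body values for 8 of 8 members in HT1080, where 29.5% of all genes did so. The count was 5 of 8 in U87 (17% of all genes) and in MDA231 (9.11%), 4 in DU145 (16.7%), 2 in MDA435 (12.3%) and 0 in U251 (22%). The members' median change was 0.49 in U87, 0.46 in HT1080, 0.27 in MDA231, 0.23 in MDA435, 0.22 in U251 and 0.20 in DU145, against medians of all genes between 0.01 and 0.09. No member's difference between lines passed, however. The moderated F test of the change between lines called 0 of 8 members (unadjusted p under 0.05: 0; lowest unadjusted p 0.0629 for ARPC1A, adjusted p = 0.549), and 1.18% of all genes. With array weights 1 member was called.

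Taking the 6 line differences as the units, 5 of 8 members were called higher, and 29% of all genes were. ARPC3 had an adjusted p of 0.000827, ARPC1A 0.00177, ARPC1B 0.00245, ARPC5L 0.00346 and ARPC5 0.00602 in this limma fit. ARPC2 (0.125), ACTR3 (0.268) and ARPC4 (0.557) did not pass.

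Each of the 20 probe sets was also tested for itself, among 35240 probe sets. Of the 20, 12 were called higher and 0 lower, while 25.4% of all probe sets were called higher and 8621 of the 35240 lower. All 4 probe sets of ARPC5L were called, with changes between 0.37 and 0.51. Of the 5 for ACTR3, 0 were called by limma, with changes between -0.12 (a dim probe set) and 0.12. ARPC2 had 2 of 3 called, at 0.20 ± 0.07 (adjusted p = 0.0212) and 0.21 ± 0.08 (0.0246), and its brightest probe set just missed here (adjusted p = 0.0543).

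By line, the brightest probe set did not stand for all. Of the 20 probe sets, 7 were called higher in U87 (8.67% of all probe sets tested), 9 in HT1080 (9.9%), 5 in MDA435 (2.42%), 2 in MDA231 (1.15%), 1 in U251 (4.61%) and 0 in DU145 (1.15%), and 0 were called lower in any line by limma. The share of all probe sets called lower in a single line was not counted. The single U251 call was the dimmest probe set of ARPC5L (0.60, adjusted p = 0.025), where the other 3 ran from 0.02 to 0.40 and were not called. Those other ARPC5L probe sets were called in U87, and beside the brightest, which missed in HT1080 (adjusted p = 0.0577), the remaining 3 were all called there (adjusted p = 0.0136, 0.00904 and 0.00943). In MDA435 2 of its probe sets were called (0.51 and 0.58, adjusted p = 0.0427 and 0.0248) and in MDA231 1 (0.64, adjusted p = 0.018). The second probe set of ARPC5 was called in U87 (adjusted p = 0.0148), HT1080 (0.0215) and MDA435 (0.0377), and that of ARPC4 in HT1080 (1.42, adjusted p = 0.0101).

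Probe sets disagreed for ARPC4 and ARPC5. The dim second probe set of ARPC4 read 41 ± 22.9 in cell bodies and 78.7 ± 45.8 in pseudopods (SD, n = 18 each). It rose by 0.68 ± 0.16 (SE; adjusted p = 0.00094; 6 of 6 lines higher), against 0.07 ± 0.09 for the brighter one. With the mean of all probe sets ARPC4 was called (0.38, adjusted p = 0.00429). For ARPC5 the bright probe set and a second (503 ± 177 in cell bodies and 691 ± 230.0 in pseudopods) both rose, the second by 0.46 ± 0.08 (adjusted p = 2.28e-05), while another, close to background (57 ± 21.3 in cell bodies and 48.5 ± 8.84 in pseudopods), gave -0.14 ± 0.09 (adjusted p = 0.216). Which transcripts these probe sets read was not tested.

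**Figure D3:**
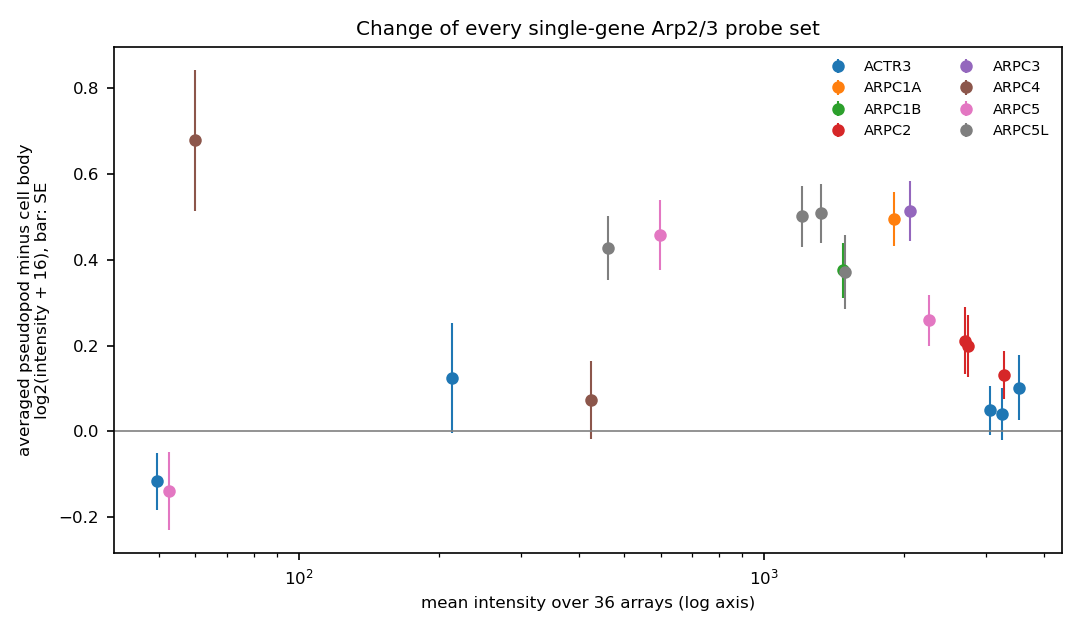
Averaged change (pseudopod minus cell body on log2(intensity + 16); bar, SE) of each of the 20 probe sets annotated to a single Arp2/3 subunit gene, against its mean intensity over 36 arrays on a log axis. The 4 ARPC5L probe sets lie between 0.37 and 0.51, the 5 of ACTR3 between -0.12 and 0.12, and the 2 of ARPC4 at 0.07 and 0.68.

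In cell bodies, levels differed between lines for 7 of the 8 members (moderated F test over the 6 cell body groups), and 80.6% of all genes differed. ARPC1B varied most, 2.77-fold from the highest to the lowest line (adjusted p = 2.14e-09). Its order was DU145 (2002 ± 137, SD, n = 3 for each line), MDA435 (1824 ± 374), U87 (1235 ± 84.2), HT1080 (1121 ± 32.9), U251 (866 ± 97.2) and MDA231 (723 ± 117). Arrays of neighbouring lines in this order overlapped, except between MDA435 and U87 and between HT1080 and U251. ARPC1A had another order, from HT1080 (1920.3 ± 182) and DU145 (1775 ± 172) through U251 (1578), MDA435 (1575) and U87 (1573) to MDA231 (989.7 ± 54.2), which alone lay apart from its neighbour (1.94-fold over all lines; adjusted p = 5.42e-05).

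The core and the actin-related subunit shared U87 and U251 at the top. ARPC2 was highest in U87 (4126 ± 209), then U251 (3624 ± 190.3) and HT1080 (3151 ± 223), each apart from the next, and lowest in MDA231 (2379 ± 239.6; 1.73-fold; adjusted p = 5.15e-05). ACTR3 went from 4581 ± 589 in U87 and 4137 ± 597 in U251 to 2526 ± 266 in MDA231, with every pair of neighbours overlapping (1.81-fold; adjusted p = 0.00108). ARPC4 was highest in U251 (559 ± 62.2) and lowest in MDA231 (345 ± 87), and did not pass (1.62-fold; adjusted p = 0.0534).

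For the remaining small subunits the low end was MDA435. ARPC3 stood at 1113 ± 69.7 there and apart from the other 5 lines, which overlapped in order from U251 (1928 ± 239) to DU145 (1635 ± 104) (1.73-fold; adjusted p = 0.00104). ARPC5 was highest in U87 (2566 ± 239), apart from HT1080 (2098 ± 162), and lowest in MDA435 (1695 ± 176; 1.51-fold; adjusted p = 0.0135). ARPC5L went from 1557 ± 169 in U87 to 1023 ± 43 in MDA435 with all neighbours overlapping (1.52-fold; adjusted p = 0.0422). Without MDA231 and MDA435, 3 of 8 members differed between the remaining lines. Fewer lines enter that test, and the share of all genes that differed in it was not counted.

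Values of the members were correlated from array to array, and so were those of genes outside the complex. After each line's mean was subtracted, the 28 pairs of members had Pearson correlations from 0.215 (ARPC4 with ARPC5L) to 0.892 (ARPC1A with ARPC1B) over 36 arrays, with a median of 0.658. After each group's mean was subtracted, which takes out the difference between fractions, they ran from 0.0565 (ARPC4 with ARPC5L) to 0.901 (ACTR3 with ARPC2), with a median of 0.457. The points share each array's scaling and RNA, so these values are descriptions. ACTR3, ARPC2 and ARPC5 formed the closest group in the second measure (0.901, 0.853 and 0.767 for their pairs), and ARPC4 was the member least like the rest.

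The 5 other genes whose line-centred values were most like the mean of the members over the 36 arrays were NDUFA1, a subunit of respiratory complex I (r = 0.958), MICOS10, a shaper of mitochondrial cristae (0.936), ATP5PO, a stalk subunit of ATP synthase (0.934), TRIR, a ribonuclease gene (0.930), and PFDN2, a prefoldin chaperone subunit (0.930). Subtracting a line's mean keeps the difference between fractions, so genes picked in this way tend to share the members' rise by selection. Their averaged changes were 0.36, 0.37, 0.38, 0.47 and 0.54, each called by limma (highest adjusted p = 4.36e-05), as were 29.5% of all genes. These calls follow from how the 5 genes were picked and are no separate result. They share the arrays and a high intensity with the members, with means from 1400 to 2772 in cell bodies.

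Genes listed as regulators of the complex were also often higher in pseudopods. Beside genes that switch it on and off, the list holds 2 variant subunits and 11 genes for filament capping and the actin monomer pool. Of 58 listed regulators, 53 were tested and 5 were not analysed here. On the averaged contrast 29 were called higher and 1 lower, with a median change of 0.22 against 0.05 over all genes (29.5% called higher, 20.8% lower). Over the other settings tried the number higher ran from 23 to 41. The median of all genes was 0.13 at mean intensities from 200 to 1000 and 0.20 from 1000 to 2000, and the part of intensity in the regulators' changes was not tested. By line, 10 of the 53 were called higher in U87 (11.7% of all genes), 13 in HT1080 (12.8%), 5 in U251 (5.36%), 3 in MDA231 (1.18%), 2 in MDA435 (2.96%) and 0 in DU145 (0.825%) by limma. In U87 and in HT1080 1 was called lower, where 11.8% and 12% of all genes were: WASHC4, which fell by 0.51 and by 0.44 (adjusted p = 0.0101 and 0.0256).

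Among 22 tested activators, 10 were higher and 1 lower, where 29.5% and 20.8% of all genes were. BRK1, the small subunit of the WAVE complex, went from 1451 to 2158 intensity units (means of cell body and pseudopod arrays) and rose by 0.56 ± 0.07 (SE; limma, adjusted p = 5.45e-08). WASHC3, of the endosomal WASH complex, rose by 0.50 ± 0.07 (4.21e-07), WIPF1, which binds WASP, by 0.44 ± 0.10 (0.000401), and WASF2, which encodes WAVE2, by 0.42 ± 0.10 (0.00124). The single fall was that of WASHC4, another WASH complex subunit, by 0.27 ± 0.06 (0.000423; lower in 6 of 6 lines). CTTN, which encodes the branch stabiliser cortactin, was at 0.14 ± 0.06 and missed the test (0.0627).

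Among 7 GTPase and adaptor genes, 5 were higher, where 29.5% of all genes were. CDC42, a GTPase that opens WASP proteins, rose by 0.39 ± 0.07 (1.68e-05), and the adaptor gene NCK2 by 0.33 ± 0.07 (0.000227). BAIAP2, a membrane-bending link between GTPases and WAVE, rose by 0.21 ± 0.09 (0.0452) and TRIP10 by 0.20 ± 0.08 (0.0331). These are limma adjusted p-values on the averaged contrast, as for the activators.

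Genes that oppose branching were higher as well, in 9 of 12 cases, against 29.5% of all genes. ARPIN, an inhibitor that competes with activators for the complex, rose by 0.36 ± 0.10 (0.0047), and the coronin gene CORO2B by 0.34 ± 0.10 (0.00366). GMFG, a debranching factor, and CORO7, a Golgi coronin, rose by 0.33 ± 0.06 (5.38e-05) and 0.30 ± 0.08 (0.00176), but their means in cell bodies were 9.44 and 8.76 units, at the dim end of the arrays. Of the 2 variant subunits, ACTR3B, which can take the place of Arp3, was at 0.22 ± 0.12 (0.144) and neither was called. Among 10 genes for filament capping and the actin monomer pool 5 were higher, against 29.5% of all genes. Of these, CAPZA2, a capping protein subunit (0.43 ± 0.06), PFN1, profilin (0.43 ± 0.06), CFL2, cofilin (0.36 ± 0.06), and TMSB10, a thymosin that holds monomers (0.35 ± 0.07), rose most.

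**Figure D4:**
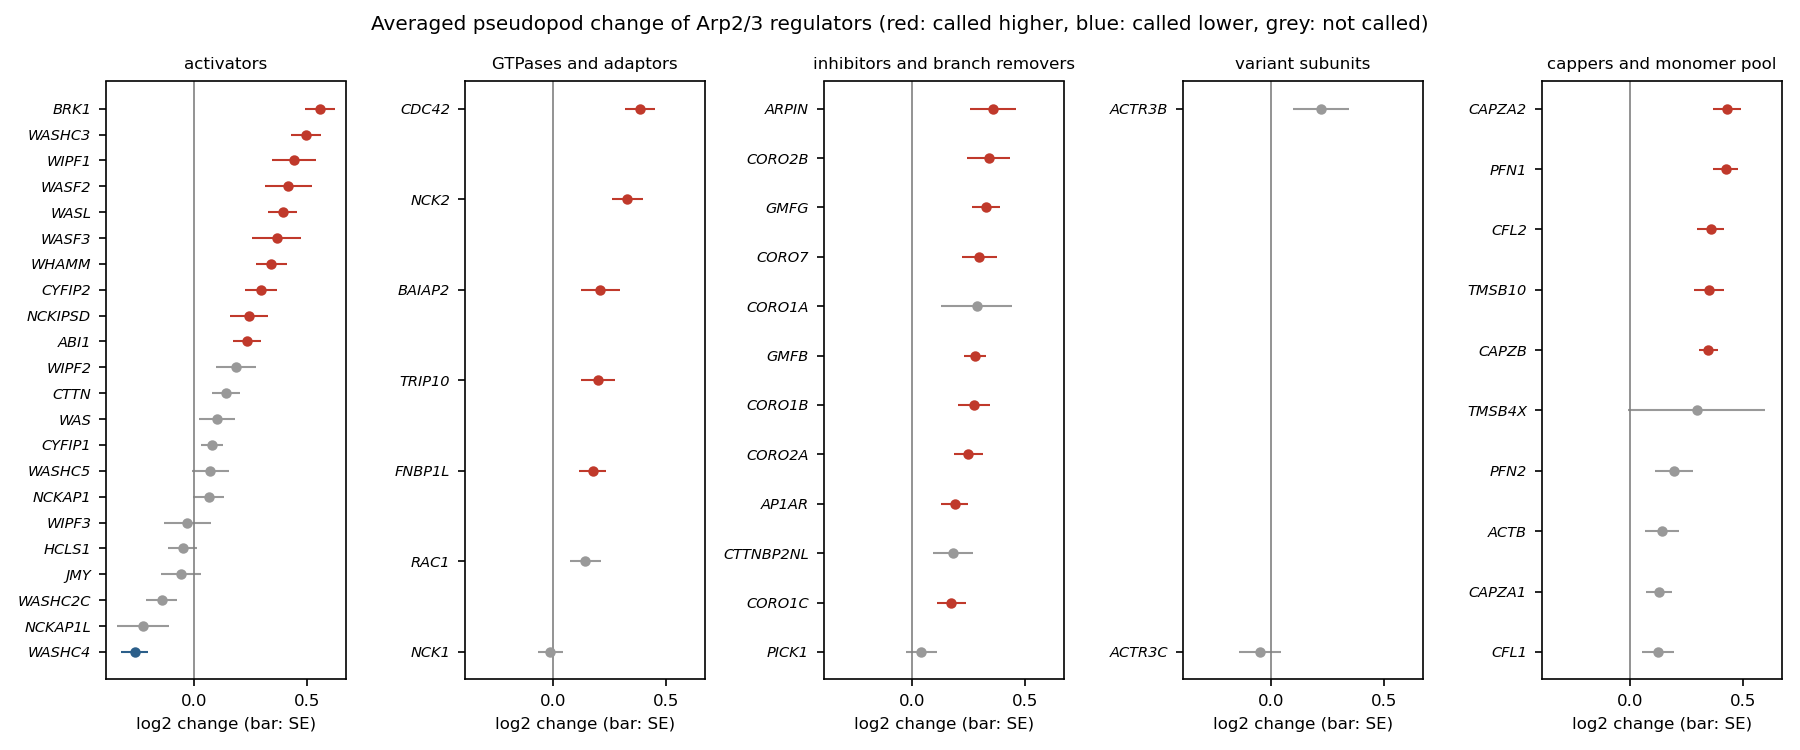
Averaged change (pseudopod minus cell body on log2(intensity + 16); bar, SE) of the 53 tested regulators of the Arp2/3 complex in 5 roles; red points were called higher, blue lower and grey not called. Red points number 29, and the single blue point is WASHC4 (-0.27).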

How the data were processed

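The authors deposited 54593 probe sets as intensity on a linear scale (0 to 9883.2). Per the submitters' processing notes RMA and Partek were used, with no role or version. Which program made the deposited values is not given. Their array medians ran from 18.2 to 30.6, so these values had not been quantile normalized. The trimmed mean of each array lies between 149.18 and 149.59, so the arrays had been scaled to a common mean, and no array was normalized again. Each value became log2(intensity + 16), which understates changes of dim genes. Each gene was read by its brightest probe set on average, and the 15399 genes with a group mean of at least 24.4 were tested with limma 3.58.1 in R 4.3.3 (12 group means, 24 residual degrees of freedom, Benjamini-Hochberg adjustment over all genes, called under 0.05). Paralogs were compared by permutation, and figures were drawn with matplotlib 3.10.9. Arrays hold 3 samples per group, and that number limits the precision. No 2 arrays were identical (highest correlation 0.993).

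Replicate numbers are shared between fractions, but over 18 same-numbered pairs the correlation of deviations ran from -0.778 to 0.688 and only 4 exceeded 0.1, so the numbers were not taken to pair samples. The members and the lists of regulators and markers were chosen with earlier results of these data known. The named genes are all members, up to 4 called regulators per role and direction with the largest changes plus BRK1, CTTN, ARPIN and ACTR3B, the 5 genes most correlated with the members, and CDH1, EPCAM, RNA45SN5 and SERPINH1; lineage markers beside these were named after their values were seen. The fit was tested on simulated data made from these arrays with known changes. Each fold was given to 50 of the 15399 genes, whereas 4550 and 3204 genes were called higher and lower in the data. Noise was normal, with the same spread for a gene in all groups. The adjustment is stricter when few genes change, so the shares and counts below hold for that setting only. For 1.2-, 1.35-, 1.5- and 2-fold changes, 36%, 78%, 90% and 96% were called on the averaged contrast. In U87 alone 0%, 2%, 8% and 58% were called. Genes left unchanged were called 11 times on the averaged contrast and 3 times in U87. A single-line change that was not called is therefore not shown to be absent.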

Additional observations from a re-analysis of the deposited data

Results flagged for a closer look

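The estimated change of ARPC4 pointed opposite ways in lines whose fractions did not overlap. It was 0.27 in U87 and 0.34 in HT1080, where every pseudopod array lay above every cell body array, and -0.36 in U251, where every pseudopod array lay below. The moderated F test of the difference between all 6 lines did not pass (limma, unadjusted p = 0.258, adjusted p = 0.89), and in each of these lines ARPC4 was not called (adjusted p = 0.458, 0.307 and 0.322). Its dimmer probe set gave 0.57, 1.42 and 0.29 in U87, HT1080 and U251, with no opposite sign in U251, and was called in HT1080 (adjusted p = 0.0101).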

How the results depend on the processing

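The averaged calls of ARPC3, ARPC1A, ARPC1B, ARPC5L and ARPC5 held in all 21 other settings and in all 36 fits without 1 array, as did the direction of each. ARPC2 lost its call with an offset of 1 (0.13, adjusted p = 0.0521), quantile normalization (0.017), every probe set tested (0.13), the replicate block (0.13, adjusted p = 0.0924), the lines as units (0.13), without U251 (0.15), HT1080 (0.10), MDA231 (0.10), MDA435 (0.12), both MDA lines (0.085) or the CDH1-rich arrays (0.12, adjusted p = 0.172), and ranged from 0.11 to 0.16 without 1 array. Its call was kept only without U87 PS replicate 3, U251 PS replicate 2 or CB replicate 3, HT1080 PS replicate 2 or 3 or CB replicate 3, DU145 CB replicate 2, MDA231 PS replicate 1 or CB replicate 2 or 3, or MDA435 PS replicate 3 or CB replicate 1 or 3. Without shared probe sets (identifiers ending in _s_at or _x_at) ARPC2 has no value. ACTR3 turned to -0.016 with quantile normalization, and ARPC4 was called with the mean of all probe sets (0.38). The excess of ARPC1A over ARPC1B ended with quantile normalization (0.090) and without U87 (0.11), HT1080 (0.10), MDA435 (0.10) or both MDA lines (0.095); ARPC5 minus ARPC5L was called with the mean of all probe sets (-0.26). In each case the cause was not tested.

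Counts of members called per line moved more. MDA231 had 0 with an offset of 1, the replicate block or without U251, HT1080 or DU145, 2 without shared probe sets and 3 with array weights (0 to 1 without 1 array). MDA435 had 1 with equal array medians or without U251, HT1080 or DU145, 0 with the replicate block or without the CDH1-rich arrays, 4 without shared probe sets and 6 with array weights (0 to 2 without 1 array). U251 had 2 with array weights, DU145 had 1 with array weights or quantile normalization, HT1080 had 2 with the replicate block (2 to 5 without 1 array), and U87 ranged from 2 to 5. Array weights also gave 1 member whose change differed between lines, and 3 members differed in cell body level without both MDA lines. The share of all genes that differed was not counted in either setting. Regulators called lower numbered 3 without shared probe sets and 1 to 2 without 1 array. The replicate block left 4085 genes higher and 2969 lower. Quantile normalization gave 5196 and 2806, and moved the median of all genes from 0.05 to 0.09. By number, 3 of 18 pseudopod arrays correlated best with the cell body array of their own number. The intensity scale and 3 arrays per group limit what a single line can show.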

Other observations

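Probe sets that the annotation gives to ARPC4 together with its read-through transcript ARPC4-TTLL3 number 4, and 3 of these are also given to TTLL3, so none can be assigned to 1 gene. The brightest, annotated to ARPC4 and the read-through alone, went from 63.8 in cell bodies to 98.4 in pseudopods (0.47 ± 0.08, SE; limma, adjusted p = 1.18e-05). Those annotated to TTLL3 as well fell by 0.32 ± 0.08 (adjusted p = 0.0015) and by 0.47 ± 0.10 (adjusted p = 0.000208), from 21.2 and 19.3 in cell bodies, and the last was too dim to be tested. They were named after their values were seen.

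Over all genes, residual standard deviations of log2 values were 0.41 and 0.43 in the pseudopod arrays of MDA231 and MDA435 and 0.22 to 0.37 in those of the other lines.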
